A study of Mus musculus with 4 samples.

Results

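The 40 genes described here encode the enzymes of glutathione and thioredoxin metabolism, the peroxiredoxins, superoxide dismutases and catalase, and NRF2 with its inhibitor KEAP1. They were chosen by symbol, and each matched 1 of the 22186 genes in the deposited expression table. Expression was measured by RNA sequencing in MC38, a colon carcinoma line from mouse, after stable transfection with CXCL14 behind a TetOn promoter. The chemokine CXCL14 is secreted, and a TetOn promoter is switched on by doxycycline, a tetracycline. The treated cultures (DOX, 2 libraries) had 1 µg/mL doxycycline, and the control cultures (2 libraries) had the same volume of the solvent PBS. Per the treatment protocol both were harvested at 72 h, whereas the series text speaks of cells taken before and after induction. All 4 cultures carried the construct, and none had doxycycline without it, so effects of the drug and of CXCL14 cannot be told apart. Whether the line is a single clone is not given in the sources used here.

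NRF2, encoded by Nfe2l2, is a transcription factor that switches on many antioxidant and detoxification genes. KEAP1 holds it in the cytosol and hands it to a ubiquitin ligase, and oxidants or electrophiles that modify KEAP1 cysteines release it. Glutathione and thioredoxin are parallel thiol systems, both kept reduced with NADPH, which remove peroxides through the glutathione peroxidases and the peroxiredoxins. Superoxide dismutases turn superoxide into hydrogen peroxide, which these peroxidases and catalase break down.

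Levels are in TPM, which scales each gene's abundance for length and library, so genes can be compared. No read counts are in the tables, and depth is therefore unknown. Cxcl14, the gene under the inducible promoter, was listed at 385 and 391 TPM in DOX cultures and at 27.3 and 29.2 TPM in controls. Of 8 colon epithelial markers, Cdx2 and Cdh1 were listed at 0 in all 4 libraries, and the 8 summed to 0.830 and 1.13 TPM in DOX cultures and to 1.26 and 1.19 TPM in controls. The 8 leukocyte markers summed to at most 0.250 TPM in any library, and the 3 endothelial markers to at most 0.609 TPM. The 6 fibroblast markers summed to 523 and 493 TPM in DOX cultures and to 3428 and 3620 TPM in controls, nearly all of it Dcn and Pdgfra, with Lum listed at 0 in both DOX libraries. Col1a1, another of the 6, stood at 3.39 and 2.02 TPM in DOX cultures and at 2.43 and 2.14 TPM in controls, with overlapping groups, and Col1a2 at 0.250 and 0.104 TPM in DOX cultures and 0.0778 and 0.0418 TPM in controls. The part of these markers in the results below was not tested.

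The comparison asked which antioxidant genes differ between cultures with and without induced CXCL14. Over all genes tested, 35.4% were lower in DOX cultures and 29.0% higher. Of the 33 tested members, 17 (51.5%) were lower and 9 (27.3%) higher, and 7 did not pass the threshold. The largest fall was of Sod2, the mitochondrial superoxide dismutase, with a log2 difference of -1.93, and the largest rise was of Cth, an enzyme of cysteine synthesis, with 2.77. Of the 6 glutathione transferases tested 5 fell, as did Nfe2l2, the gene for NRF2. Some members known as NRF2 targets serve as examples and are not a full list: Nqo1, Hmox1 and Gclm fell, and Srxn1, Txnrd1 and Prdx1 did not pass. Gclc, another example, rose, but that call ended in 5 of 14 alternative settings. Glutathione synthetase, mitochondrial thioredoxin and mitochondrial Prdx3 were among those that rose. In whole cultures, fewer cells expressing a gene and less of its RNA per cell cannot be told apart.

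The test was limma on log2(TPM + 1), with Benjamini-Hochberg adjustment over 11359 genes and a call at an adjusted p under 0.05. Of the 40 members, the 33 whose level averaged 1 TPM or more were tested. Differences are DOX minus control on that log2 scale, which understates the change of genes at low levels. The share of tested genes called was 64.4% in either direction, 29.0% higher and 35.4% lower, a balance that tips to more genes higher than lower under median-of-ratios scaling and quantile normalization. The members' shares were 78.8% in either direction, 27.3% higher and 51.5% lower. Their median log2 difference was -0.33, beside -0.043 over all genes tested. Among the members, 9 of 33 were called with a difference of at least 1 in size, 2 higher and 7 lower, beside 11.2% of all genes tested. The TPM of the groups did not overlap for 31 of the 33, beside 82.7% of all genes tested. With 2 cultures a group, an exact two-sided permutation test of a single gene cannot go below p = 0.33, so each call leans on the variance that limma pools over genes.

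**Figure D1:**
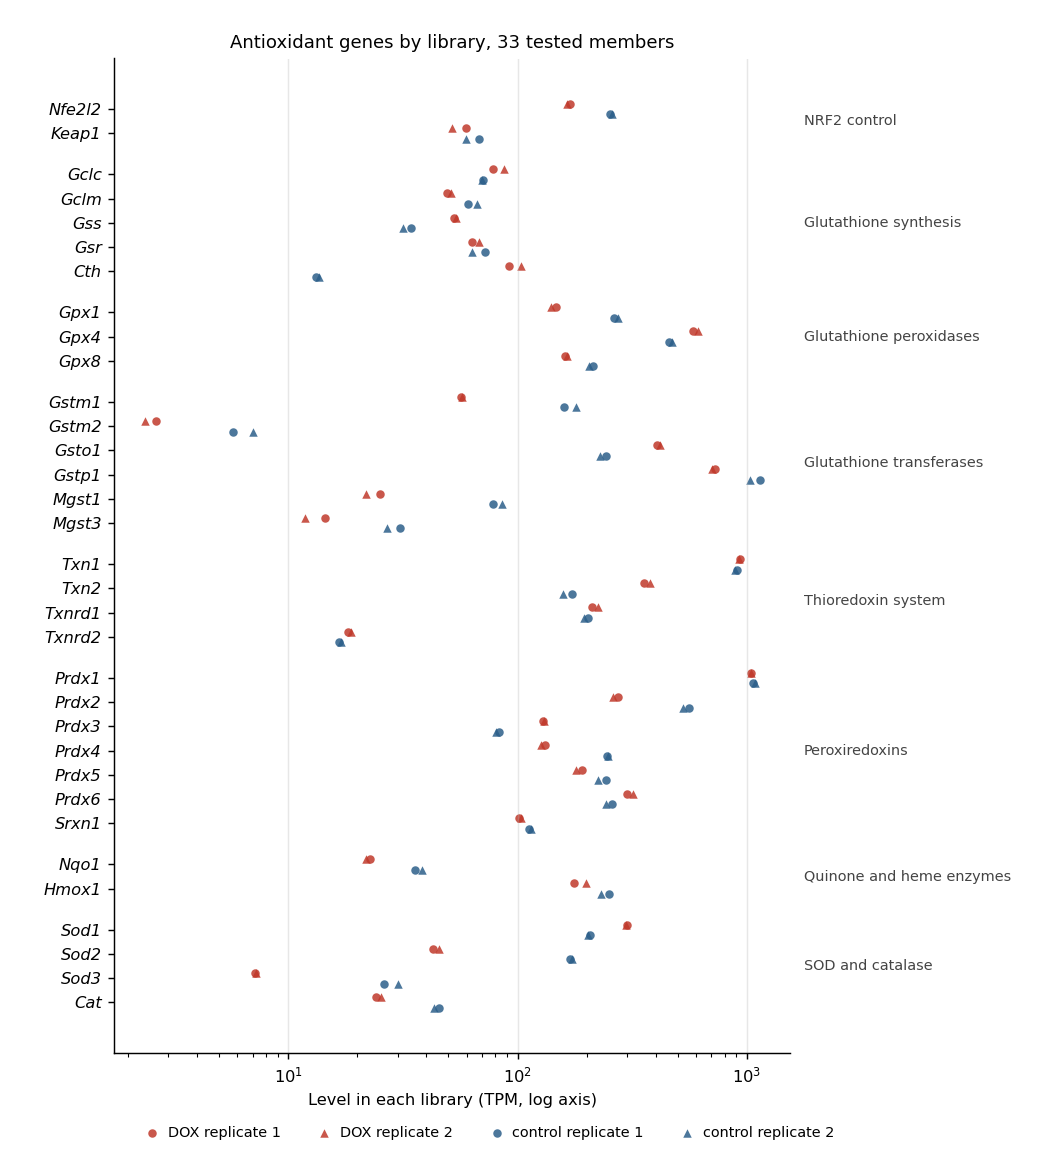
TPM of the 33 tested members in each of the 4 libraries on a log axis, DOX in red above control in blue, with circles for replicate 1 and triangles for replicate 2. The pairs of replicates lie close together, and Cth, Gstm1, Mgst1, Sod2 and Sod3 show the widest gaps between groups.

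The members that were not tested were at or near 0 throughout. Gpx7, Gsta4 and Gstm5 were listed at 0 in all 4 libraries. Cbs, which makes the cystathionine that CTH cleaves, was listed at 0.0872 and 0 TPM in DOX cultures and at 0.0675 and 0 TPM in controls. Ggt1, the cell-surface enzyme that begins glutathione breakdown, was listed at 0 in both DOX libraries and at 0 and 0.0967 TPM in controls. Gstt1, a theta-class glutathione transferase, stood at 0.270 and 0.126 TPM in DOX cultures and at 0.592 and 0.3002 TPM in controls. Gpx3, the secreted peroxidase, stood at 0.174 and 0 TPM in DOX cultures and at 0.395 and 1.28 TPM in controls, control replicate 2 holding most of its signal.

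The gene for NRF2 was lower in DOX cultures, while that for its inhibitor did not pass. Nfe2l2 stood at 169 and 165 TPM in DOX cultures and at 253 and 258 TPM in controls. The groups were well apart, and the gene fell (log2 difference -0.61, SE 0.06, limma adjusted p = 1.5e-05). Keap1 stood at 59.9 and 51.7 TPM in DOX cultures and at 68.0 and 59.5 TPM in controls. Its groups overlapped, and the difference of -0.19 (SE 0.09) did not pass (limma adjusted p = 0.095), although it did without DOX replicate 1 (log2 difference -0.29, limma adjusted p = 0.023, with 0.023 to 0.51 over 14 alternative settings).

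Nqo1 and Hmox1 are widely used readouts of NRF2 activity. Nqo1, which reduces quinones with NAD(P)H, stood at 22.6 and 21.8 TPM in DOX cultures and at 35.6 and 38.3 TPM in controls, and fell (log2 difference -0.71, SE 0.08, limma adjusted p = 4.4e-05). Hmox1, the inducible heme oxygenase, stood at 175 and 199 TPM in DOX cultures and at 249 and 231 TPM in controls, and fell (log2 difference -0.36, SE 0.07, limma adjusted p = 0.0024). The groups did not overlap for either gene, as was so for 82.7% of all genes tested. Srxn1, which repairs overoxidised peroxiredoxins and is another NRF2 target, stood at 101 and 104 TPM in DOX cultures and at 112 and 115 TPM in controls. Its difference of -0.14 (SE 0.06) lay just outside the threshold (limma adjusted p = 0.056), and inside it with no filter on low values (0.049) and under quantile normalization (0.018), with 0.018 to 0.29 over 14 alternative settings.

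NRF2 binds the antioxidant response element, whose core reads TGACNNNGC. Promoter windows of 300 bases, from 250 before to 50 after a RefSeq start, were searched on both strands (build GRCm38.p6), and 33 members had 43 windows. The core was in 11 of these 43 windows (25.6%), beside 12.4% of all 32851 windows in the table. The 11 windows belong to 9 members, because Ggt1, at or near 0 TPM and not tested, held the core in several. The stretches below are shown because their genes went in different directions: Nfe2l2, Gclm and Mgst1 fell, Sod1 rose, and Prdx1 and Txnrd1 did not pass. Each is written 5′ to 3′ on the gene's strand, with the match in capitals and up to 20 bases on either side.
Nfe2l2 (chr2:75704875-75704913, minus strand): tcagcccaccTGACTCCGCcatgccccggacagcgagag
Gclm (chr3:122245403-122245451, plus strand): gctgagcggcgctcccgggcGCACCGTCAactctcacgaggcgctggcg
Mgst1 (chr6:138140451-138140499, plus strand): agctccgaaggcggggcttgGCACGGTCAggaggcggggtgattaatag
Sod1 (chr16:90220686-90220734, plus strand): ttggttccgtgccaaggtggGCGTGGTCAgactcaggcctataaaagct
Prdx1 (chr4:116685446-116685494, plus strand): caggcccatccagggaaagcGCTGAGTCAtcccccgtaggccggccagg
Txnrd1 (chr10:82859094-82859142, plus strand): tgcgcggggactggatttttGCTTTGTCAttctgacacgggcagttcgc

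In the stretches of Gclm, Mgst1, Sod1, Prdx1 and Txnrd1 the core lies on the opposite strand, and the capitals show its reverse complement. Among members with a window, the core was found in 1 of 6 that rose, 3 of 15 that fell and 3 of 6 that did not pass, and in Ggt1 and Gstm5, which were not tested. Matches were thus found among members of each outcome. The AP-1 site TGANTCA, whose letters can overlap the core, was in 4 member windows (9.30%), beside 7.81% of all windows. Prdx1 held it inside the match shown above. Gstp1, which fell, held 1 as well.
Gstp1 (chr19:4037960-4038006, minus strand): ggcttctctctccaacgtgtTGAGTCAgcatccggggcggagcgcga

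The core TGATGNAA of the C/EBP-ATF response element, bound by ATF4, was in 0 of the 43 member windows, beside 3.97% of all windows. No window was given for Gclc, Gsr, Cth, Gsta4, Prdx6, Hmox1 and Sod3. A match is a run of letters and not a measured binding site, and no binding was measured here.

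Of the 5 tested genes of glutathione synthesis and recycling, 3 rose, 1 fell and 1 did not pass. Cth, cystathionine gamma-lyase, releases cysteine from cystathionine. It stood at 92.0 and 103 TPM in DOX cultures and at 13.2 and 13.7 TPM in controls, a ratio of mean TPM of 7.27 (log2 difference 2.77, SE 0.08, limma adjusted p = 1.7e-08). Among all genes tested its rise ranked 15 from the top. Gss, glutathione synthetase, which adds glycine in the last step, stood at 52.7 and 54.0 TPM in DOX cultures and at 34.4 and 31.8 TPM in controls, and rose (log2 difference 0.67, SE 0.07, limma adjusted p = 3.7e-05).

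The subunits of glutamate-cysteine ligase, the rate-limiting enzyme of glutathione synthesis, went in opposite directions. Gclc, the catalytic subunit, stood at 77.9 and 87.5 TPM in DOX cultures and at 70.7 and 69.9 TPM in controls, and rose (log2 difference 0.23, SE 0.07, limma adjusted p = 0.019). That call ended in 5 of 14 alternative settings, among them without DOX replicate 2 (log2 difference 0.15, limma adjusted p = 0.21), without control replicate 1 (0.061) and without control replicate 2 (0.078), with adjusted p from 0.0051 to 0.21. Gclm, the modifier subunit, stood at 49.2 and 51.4 TPM in DOX cultures and at 60.6 and 66.6 TPM in controls, and fell (log2 difference -0.33, SE 0.07, limma adjusted p = 0.0029). The ratio of Gclc to Gclm TPM was 1.58 and 1.70 in DOX cultures and 1.17 and 1.05 in controls, higher in both DOX libraries.

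Gsr, the reductase that regenerates glutathione with NADPH, stood at 63.1 and 67.9 TPM in DOX cultures and at 72.5 and 63.6 TPM in controls. The groups overlapped, and the log2 difference of -0.052 (SE 0.08, limma adjusted p = 0.58) turned to 0.016 under median-of-ratios scaling and to 0.040 without control replicate 1. Together the 7 genes of this role summed to 350 ± 20.6 TPM in DOX cultures and 249 ± 4.23 TPM in controls (SD, n = 2).

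**Figure D2:**
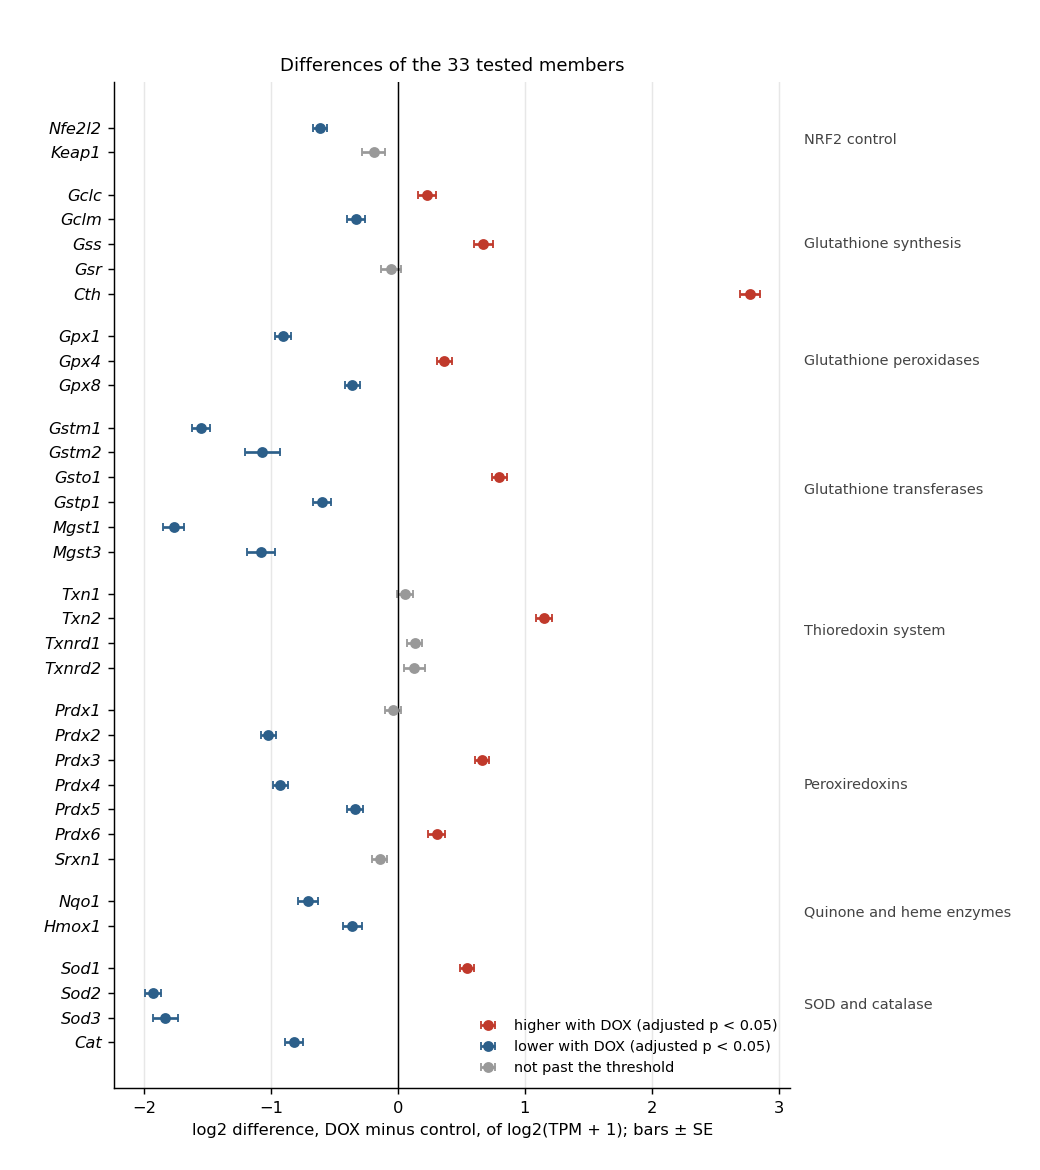
log2 difference (DOX minus control) of the 33 tested members with its SE, by role, with red for higher, blue for lower and grey for members that did not pass. Cth stands apart on the right at 2.77, while Sod2, Sod3, Mgst1 and Gstm1 lie left of -1.5.

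Of the 3 glutathione peroxidases tested, 1 rose and 2 fell. Gpx4, the selenoprotein that reduces lipid hydroperoxides in membranes, stood at 584 and 614 TPM in DOX cultures and at 458 and 469 TPM in controls, and rose (log2 difference 0.37, SE 0.06, limma adjusted p = 6.6e-04). Gpx1, the selenoprotein that reduces soluble peroxides, stood at 147 and 140 TPM in DOX cultures and at 264 and 275 TPM in controls, and fell (log2 difference -0.90, SE 0.06, limma adjusted p = 1.8e-06). Gpx8, a peroxidase of the endoplasmic reticulum, stood at 161 and 164 TPM in DOX cultures and at 213 and 204 TPM in controls, and fell (log2 difference -0.36, SE 0.06, limma adjusted p = 5.4e-04). Gpx4 was the most abundant of the family in every library. Its share of the family's summed TPM was 65.5% and 66.9% in DOX cultures and 49.0% and 49.4% in controls, and the ratio of Gpx4 to Gpx1 was 3.98 and 4.39 in DOX cultures and 1.74 and 1.71 in controls.

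Glutathione transferases join glutathione to electrophiles. Of the 6 tested, 5 fell and 1 rose, with a median log2 difference of -1.07. Mgst1, a membrane-bound transferase with peroxidase activity, stood at 25.04 and 21.8 TPM in DOX cultures and at 78.1 and 85.9 TPM in controls (log2 difference -1.77, SE 0.09, limma adjusted p = 3.0e-07). Gstm1, a mu-class enzyme, stood at 56.8 and 57.1 TPM in DOX cultures and at 159 and 179 TPM in controls (log2 difference -1.55, SE 0.07, limma adjusted p = 2.2e-07). Both fell, with ratios of mean TPM of 0.286 for Mgst1 and 0.337 for Gstm1.

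Gstm2, another mu-class gene, was much lower, at 2.65 and 2.38 TPM in DOX cultures and 5.75 and 7.05 TPM in controls (log2 difference -1.07, limma adjusted p = 1.3e-04). Mgst3, a further membrane-bound family member, stood at 14.5 and 11.9 TPM in DOX cultures and at 30.9 and 27.0 TPM in controls (log2 difference -1.08, limma adjusted p = 2.9e-05). Gstp1, the pi-class enzyme and the most abundant transferase, stood at 728 and 702 TPM in DOX cultures and at 1136 and 1029 TPM in controls (log2 difference -0.60, limma adjusted p = 8.0e-05). All 3 fell, with groups that did not overlap, as was so for 82.7% of all genes tested.

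The exception was Gsto1, the omega-class transferase, which reduces dehydroascorbate and removes glutathione from proteins. It stood at 404 and 417 TPM in DOX cultures and at 242 and 228 TPM in controls, and rose (log2 difference 0.80, SE 0.06, limma adjusted p = 4.3e-06). Its share of the summed transferase TPM was 32.8% and 34.4% in DOX cultures and 14.7% in both controls, and the sum over the 9 transferases was 1222 ± 13.3 TPM in DOX cultures and 1605 ± 68.0 TPM in controls (SD, n = 2).

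In the thioredoxin system the mitochondrial thioredoxin rose and the other 3 genes did not pass. Txn2, the mitochondrial thioredoxin, stood at 358 and 377 TPM in DOX cultures and at 172 and 158 TPM in controls, and rose (log2 difference 1.15, SE 0.07, limma adjusted p = 7.9e-07). Txn1, the cytosolic thioredoxin, stood at 937 and 920 TPM in DOX cultures and at 902 and 888 TPM in controls (log2 difference 0.053, SE 0.06, limma adjusted p = 0.48). The ratio of Txn2 to Txn1 was 0.382 and 0.410 in DOX cultures and 0.191 and 0.177 in controls. Txnrd1, the cytosolic reductase that recharges thioredoxin, stood at 212 and 224 TPM in DOX cultures and at 202 and 196 TPM in controls (log2 difference 0.13, limma adjusted p = 0.082).

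Txnrd2, the mitochondrial reductase, stood at 18.3 and 18.8 TPM in DOX cultures and at 16.7 and 17.0 TPM in controls (log2 difference 0.13, limma adjusted p = 0.20). Neither reductase passed, although Txnrd1 did under median-of-ratios scaling (0.016, with 0.016 to 0.41 over 14 alternative settings) and Txnrd2 under quantile normalization (0.013, with 0.013 to 0.47). The ratio of Txnrd2 to Txnrd1 was 0.0862 and 0.0836 in DOX cultures and 0.0824 and 0.0872 in controls, with overlapping groups.

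Most peroxiredoxins reduce hydrogen peroxide with electrons from thioredoxin, whereas Prdx6 uses glutathione. Among the 6 genes 2 rose, 3 fell and Prdx1 did not pass. Prdx3, the mitochondrial form, stood at 129 and 131 TPM in DOX cultures and at 82.7 and 80.5 TPM in controls, and rose (log2 difference 0.66, SE 0.06, limma adjusted p = 1.1e-05). Prdx6, which also has phospholipase activity, stood at 299 and 320 TPM in DOX cultures and at 257 and 243 TPM in controls, and rose (log2 difference 0.31, SE 0.06, limma adjusted p = 0.0024).

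Prdx2, a cytosolic form, stood at 273 and 262 TPM in DOX cultures and at 559 and 528 TPM in controls, and fell (log2 difference -1.02, SE 0.06, limma adjusted p = 1.1e-06). Prdx4, the form of the endoplasmic reticulum, stood at 132 and 127 TPM in DOX cultures and at 247 and 248 TPM in controls, and fell (log2 difference -0.92, SE 0.06, limma adjusted p = 1.3e-06). Prdx5, found in mitochondria, peroxisomes and cytosol, fell, with 191 and 180 TPM in DOX cultures and 244 and 225 TPM in controls (log2 difference -0.34, limma adjusted p = 0.0016). Prdx1, the other cytosolic form and the most abundant, stood at 1045 and 1044 TPM in DOX cultures and at 1058 and 1089 TPM in controls. Its log2 difference of -0.039 (SE 0.06, limma adjusted p = 0.62) changed sign under median-of-ratios scaling (0.030) and quantile normalization (0.038). Of the family's summed TPM, Prdx2 held 13.2% and 12.7% in DOX cultures and 22.8% and 21.9% in controls.

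**Figure D3:**
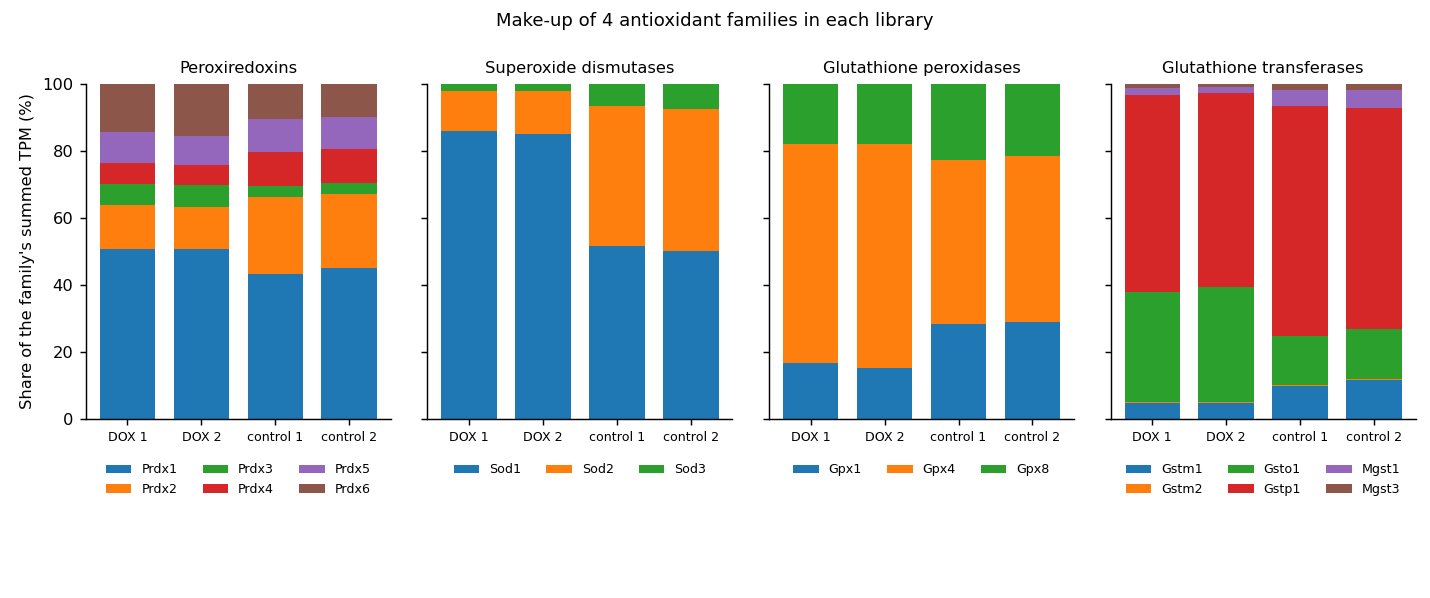
Share of each family's summed TPM (percent) held by its genes in each library, DOX 1 and DOX 2 left of control 1 and control 2; genes under 0.2% in every library are not drawn. Sod1, Gpx4 and Gsto1 hold larger shares in both DOX libraries, and Sod2, Gpx1 and Prdx2 smaller ones.

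Of the superoxide dismutases and catalase, 3 fell and 1 rose. Sod2, the manganese enzyme of mitochondria and also a gene induced by NF-kappaB, stood at 42.7 and 45.3 TPM in DOX cultures and at 169 and 172 TPM in controls (log2 difference -1.93, SE 0.06, limma adjusted p = 3.5e-08). Sod3, the extracellular form, stood at 7.15 and 7.24 TPM in DOX cultures and at 26.2 and 30.3 TPM in controls (log2 difference -1.83, SE 0.10, limma adjusted p = 5.4e-07). Both fell, with ratios of mean TPM of 0.259 for Sod2 and 0.255 for Sod3. Sod1, the copper-zinc enzyme of the cytosol, stood at 300.2 and 297 TPM in DOX cultures and at 207 and 202 TPM in controls, and rose (log2 difference 0.54, SE 0.06, limma adjusted p = 3.3e-05).

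The ratio of Sod1 to Sod2 TPM was thus 7.03 and 6.56 in DOX cultures and 1.23 and 1.17 in controls. Cat, the peroxisomal catalase, stood at 24.2 and 25.3 TPM in DOX cultures and at 45.6 and 43.3 TPM in controls, and fell (log2 difference -0.82, SE 0.07, limma adjusted p = 1.2e-05). Mitochondrial members thus did not move together: Txn2 and Prdx3 rose, Sod2 fell and Txnrd2 did not pass.

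Some single values are uncertain because reads could come from copies. In GENCODE M21, transcripts of Gstm1, Gstp1, Gpx4, Prdx1 and Sod1 match an annotated pseudogene over 100 bases or more with an identity of 97% or higher, and Gstp1 also matches Gstp2, which was listed at 3.65 and 3.37 TPM in DOX cultures and at 3.81 and 4.18 TPM in controls. Gss, Keap1, Txnrd2, Prdx2, Prdx5, Gstm2 and Sod2 share such a stretch with a transcript of another gene. Whether reads were counted by strand is not given in the sources used here.

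Around the members, 6 lists of related genes were counted in the same fit. The share called in either direction was 64.4% over all genes tested. It was 64.0% for glutathione supply and breakdown, 64.1% for the other thioredoxin, glutaredoxin and methionine sulfoxide genes and 66.7% for NRF2 partners and regulators. For the other glutathione peroxidases and transferases it was 76.9%, for the other NRF2 target genes 80.6% and for NADPH supply 88.9%. Of the 25 tested genes of glutathione supply and breakdown, 11 rose and 5 fell, with a median log2 difference of 0.14. Chac1, which degrades glutathione in the cytosol and is an ATF4 target, had 274 and 267 TPM in DOX cultures and 52.7 and 50.2 TPM in controls (log2 difference 2.37, limma adjusted p = 9.2e-09). Slc1a5, a glutamine transporter, rose (log2 difference 1.82), while Csad, which acts on the route from cysteine to taurine, and Abcc1, an exporter of glutathione conjugates, fell (-0.52 and -0.36). Slc7a11 and Slc3a2, the subunits of the cystine importer, named after their values were seen, rose as well. Slc7a11 had 66.3 and 73.4 TPM in DOX cultures and 56.1 and 55.4 TPM in controls (log2 difference 0.32, limma adjusted p = 0.0034). Slc3a2, which also serves other amino acid transporters, had 600.0 and 631 TPM in DOX cultures and 262 and 238 TPM in controls (log2 difference 1.30, limma adjusted p = 4.5e-07).

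Of the other glutathione peroxidases and transferases, a list that also holds relatives such as prostaglandin synthases and chloride intracellular channel proteins, 15 of 28 had a mean below 1 TPM. Of the 13 tested, 4 rose and 6 fell (median -0.15). Ptges, the inducible prostaglandin E synthase, had 49.0 and 41.0 TPM in DOX cultures and 249 and 238 TPM in controls (log2 difference -2.41, limma adjusted p = 5.8e-08). Mgst2, a relative of Mgst1 and Mgst3, fell to 1.77 ± 0.0587 TPM in DOX cultures, against 7.02 ± 0.682 TPM in controls (SD, n = 2; log2 difference -1.53). Clic4, a chloride intracellular channel protein, and Gstz1, a zeta-class transferase of tyrosine breakdown, rose (log2 difference 0.92 and 0.71).

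Of the other thioredoxin, glutaredoxin and methionine sulfoxide genes, 13 of 39 were higher and 12 lower (median 0.06). Glrx, the cytosolic glutaredoxin, which reduces glutathionylated proteins, had 16.6 and 16.8 TPM in DOX cultures and 121 and 117 TPM in controls (log2 difference -2.76, limma adjusted p = 8.1e-09), a difference larger in size than that of any member that fell. The sestrins, stress-induced proteins, differed in direction: Sesn1 fell (log2 difference -2.22), as did Sesn3 (-1.46), which was named after its values were seen, and Sesn2 rose (1.63). Ero1a, the oxidase of the endoplasmic reticulum that charges protein disulfide isomerase, rose (log2 difference 1.05). Txnip, which binds and inhibits thioredoxin, named after its values were seen, fell (log2 difference -0.31, limma adjusted p = 0.0043).

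NADPH, the electron source of both thiol systems, is made by several routes, and its list went both ways: 7 of 18 rose and 9 fell (median -0.17). Among the mitochondrial folate enzymes, Aldh1l2 and Mthfd2 rose (log2 difference 2.11 and 1.58). Of the others on the list, named after their values were seen, Mthfd1l rose (log2 difference 0.31) and Mthfd2l fell (-0.78). Idh1, the cytosolic NADP-dependent isocitrate dehydrogenase, had 46.4 and 46.5 TPM in DOX cultures and 116 and 137 TPM in controls (log2 difference -1.42, limma adjusted p = 8.1e-07). Aldh1a1, a retinaldehyde dehydrogenase placed on this list although it uses NAD, fell (-1.42). The 5 pentose phosphate genes, named after their values were seen, went both ways: G6pdx and Pgd fell (log2 difference -0.28 and -0.56), Pgls rose (0.54), and Tkt (-0.094) and Taldo1 (0.028) did not pass, although Tkt did without control replicate 2 (-0.19).

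Of the NRF2 partners and regulators, 7 of 21 were higher and 7 lower (median -0.0092). Sqstm1, which encodes the autophagy receptor p62 that can sequester KEAP1, had 2609 and 2680 TPM in DOX cultures and 1513 and 1394 TPM in controls (log2 difference 0.86, limma adjusted p = 1.2e-05). Nfe2l1, the NRF2 relative that controls proteasome genes, rose (log2 difference 0.74). Bach1, a repressor that competes with NRF2 at its sites, had 21.7 TPM in both DOX cultures and 40.3 and 38.1 TPM in controls, and fell (log2 difference -0.83, limma adjusted p = 1.2e-05), as did the small MAF protein gene Maff (-0.49). Mafk, another small MAF protein gene, named after its values were seen, rose (0.60).

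Of the 31 other NRF2 target genes tested, 20 fell and 5 rose, beside 35.4% lower and 29.0% higher over all genes tested. Their median log2 difference was -0.40. The list is not a full set of NRF2 targets. Genes on the other lists are not counted in it, such as Slc7a11 and Sqstm1, which rose, and G6pdx and Pgd, which fell. Aox1, aldehyde oxidase, fell to 1.80 ± 0.213 TPM in DOX cultures, against 14.8 ± 0.673 TPM in controls (SD, n = 2; log2 difference -2.50). Fth1, the ferritin heavy chain, had 4225 TPM in both DOX cultures and 12191 and 12864 TPM in controls (log2 difference -1.57, limma adjusted p = 1.4e-06). Adh7, an alcohol dehydrogenase, rose (log2 difference 2.40), as did Fgf21, a stress hormone that is also an ATF4 target (4.18).

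**Figure D4:**
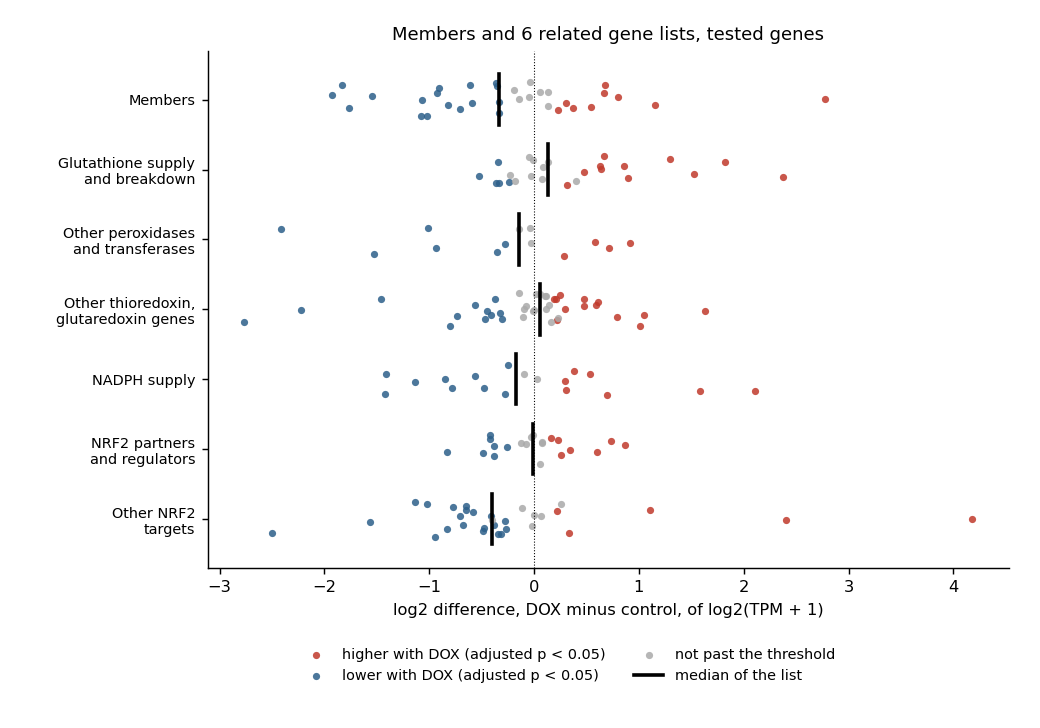
log2 difference (DOX minus control) of each tested gene among the members and 6 related lists, red for higher, blue for lower and grey for genes that did not pass, with a black bar at each list's median. The medians run from -0.40 for other NRF2 targets to 0.14 for glutathione supply and breakdown.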

How the data were processed

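The authors deposited TPM and FPKM per gene symbol, 1 column for each of 4 libraries (2 DOX, 2 control). Per the file headers both name genes by symbol, and in each library the deposited TPM are a constant (3.08 to 3.14) times the FPKM. The submitters' processing notes give mm39 as the genome build, and the sources used here do not give the aligner, quantifier or annotation. Low values showed no whole-read steps.

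Differences were fitted with limma 3.58.1 in R 4.3.3 on log2(TPM + 1), eBayes with a mean-variance trend and no covariate, for genes averaging 1 TPM or more over the libraries. Residual degrees of freedom were 2 and prior degrees of freedom 6.98. Summaries used Python 3.11.15 and pandas 2.3.3, and sequence copies were sought with blastn 2.17.0. The fit was tested on simulated data from several random draws, more of which were added after the first gave more false calls than the threshold allows. Over all draws the share of false calls was close to the threshold, and in some single draws it was above it. The draws had a far smaller share of changed genes than was called here, and noise of the form that limma assumes. They therefore cannot give the share of false calls in these data. The members, lists and tests were chosen with earlier results of these data known. Named genes are the 40 members, the 2 largest rises and 2 largest falls past the threshold in each of 6 related lists, Cxcl14, and 12 genes marked in the text as named after their values were seen. Dcn, Pdgfra and the other markers come from the marker lists, and Gstp2 from the search for copies. Alternatives were FPKM in place of TPM, pseudocounts of 0.1 and 0.5, all genes or only those averaging 5 TPM or more, quantile and median-of-ratios scaling, a robust or untrended variance, the replicate number as a block, and leaving out single replicates. Promoter sequences are from RefSeq on GRCm38.p6, an earlier build than mm39, and were matched by symbol. Replicates are biological, per the series text.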

Additional observations from a re-analysis of the deposited data

How the results depend on the processing

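Of the 33 tested members, 26 kept their direction and their side of the threshold under each of the 14 alternatives that tested them, and so did the 24 genes named by rule from the related lists. The counts of members were 8 to 10 higher and 16 to 18 lower across the alternatives. Leaving out 1 replicate gave 8 to 9 members higher and 17 to 18 lower, and 2776 to 3077 genes higher and 3473 to 3656 lower, beside 3295 and 4017 with all 4 libraries. The balance over all genes turned under median-of-ratios scaling (3809 higher and 3552 lower) and quantile normalization (3870 and 3356). Where 1 replicate was left out, the lone sample of that group is assumed to vary like the other group. The differences of Gsr (0.016 under median-of-ratios scaling, and -0.15 to 0.040 over single replicates left out) and of Prdx1 (0.030 under median-of-ratios scaling, 0.038 under quantile normalization) changed sign, and neither passed; the cause was not tested. The differences of Taldo1 (-0.076 under quantile normalization) and Tkt (-0.19 to 0.0063 over single replicates left out) changed sign as well. The median over all tested genes was -0.043 as reported, 0.021 under median-of-ratios scaling and 0.046 under quantile normalization. With the replicate number as a block, 9 members were higher and 18 lower, the added one being Keap1 (adjusted p = 0.024), and 3387 genes were higher and 4114 lower. Nothing in the labels says that the numbers mark a shared day or stock, and same-numbered samples did not deviate together (correlation -0.0053 over genes). Without counts, the precision of single low values is unknown.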
